A study of Mus musculus with 9 samples.

Results

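The nuclear genes for respiratory complexes II to V were followed in mouse CD8+ T cells. Members were taken by name from the deposited gene annotation: the succinate dehydrogenase genes Sdha to Sdhd and the Sdhaf assembly factors, the Uqc genes and Cyc1 of complex III, cytochrome c (Cycs), the Cox4 to Cox8 genes of complex IV and the Atp5 genes of ATP synthase, without entries marked as pseudogenes in the name. This gave 58 of the 55421 genes in the count table, under 57 symbols because Atp5o is listed with 2 identifiers. The rule used no expression value. Total RNA depleted of ribosomal RNA was sequenced in 9 libraries of splenic CD8+ T cells from Pmel Ly5.1 mice, whose transgenic T-cell receptor recognises a melanocyte antigen. MitoPositive cells (3 libraries) and MitoNegative cells (3 libraries) had both been co-cultured for 36 h with DM5, an immortalised mesenchymal stromal line from BL6 bone marrow with mitochondria tagged by DsRed, a red fluorescent protein, and were then sorted as DsRed+ and DsRed-. Monoculture cells (3 libraries) were controls of the same genotype with no co-culture. Each group held replicates B, C and D, and nothing in the labels says that a letter is its own animal or culture. A p-value here therefore reflects the spread among these libraries alone, and that spread may be technical. DM5 is 1 immortalised line, the sort gate rests on DsRed made in that line, and whether monoculture cells were sorted was not given in the sources used here.

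As background, complexes II to IV pass electrons along the inner mitochondrial membrane and complex V, ATP synthase, uses the proton gradient that results. Complex II oxidises succinate and hands the electrons to coenzyme Q, complex III passes them on to cytochrome c, and complex IV reduces oxygen. A few subunits of complexes III, IV and V are made inside mitochondria from mitochondrial DNA, while the members described here are encoded in the nucleus and imported. In T cells this machinery is known to be built up when a naive cell is activated. Some complex IV subunits exist as isoforms with a known tissue, such as heart and muscle, lung or testis.

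Total counts per library were between 53546152 and 74722832. A total of 51 members passed the filter on low counts and were tested among 15711 genes, and the other 7 are described with complex IV and complex V. Levels are CPM, the share of a library's counts scaled to a fixed total, on library sizes scaled by the trimmed mean of M-values, differences are log2 fold changes (first group over second) ± standard error (SE) with n = 3 per group, and "called" means an adjusted p under 0.05 in edgeR's quasi-likelihood test with Benjamini-Hochberg adjustment over all genes tested. The summed CPM of 6 CD8 T-cell markers was 5484 to 5862 in MitoPositive, 5457 to 5666 in MitoNegative and 5871 to 6604 in monoculture libraries, with none of the 6 at 0 in any group. Of these 6, 3 were called lower in MitoPositive and 4 in MitoNegative cells than in monoculture. Of 15 stromal markers, 7 (Col1a2, Col3a1, Cxcl12, Dcn, Lum, Pdgfra and Sparc) were at 0 in every monoculture library. Together these 7 stood at 11.3, 11.4 and 4.06 CPM in MitoPositive B, C and D and at 14.1, 12.4 and 3.85 CPM in MitoNegative B, C and D. The whole stromal list, which includes Thy1 that T cells also express, summed to 1668 to 1750, 1515 to 1537 and 1368 to 1825 CPM in MitoPositive, MitoNegative and monoculture libraries. Of 13 tested stromal markers 10 were called higher than monoculture in each co-cultured group. The 5 B-cell markers, 4 of them called lower in each co-cultured group, summed to 272.8 to 300.3 CPM in MitoPositive, 359.3 to 449.4 in MitoNegative and 655.7 to 730.1 in monoculture libraries. Myeloid markers (4 genes) summed to 0.4745 to 0.803, 0.1934 to 1.146 and 1.696 to 1.855 CPM, and natural killer cell markers (3 genes) at 1.344 to 1.548, 2.826 to 4.046 and 1.737 to 3.593 CPM, in the same order of groups. Against monoculture 2 of the 4 myeloid markers were called lower in MitoPositive and 1 in MitoNegative cells, and of 2 tested natural killer cell markers both were lower in MitoPositive and 0 in MitoNegative cells (edgeR). The part of these cells in the results below was not tested, and in bulk samples fewer cells of a type and less RNA per cell cannot be told apart.

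Monoculture D stood apart in the members. All 51 tested members were above the mean of monoculture B and C in this library (log2 of CPM + 0.5), with a median difference of 0.216, while the median over all genes tested was 0.022 and 54.4% of them were above. In the other 8 libraries the members' median distance from the rest of their group lay between -0.158 (monoculture B) and 0.095 (MitoPositive C). Above the rest of their group were 21, 47 and 9 of the 51 members in MitoPositive B, C and D, and 39, 42 and 4 in MitoNegative B, C and D. In monoculture B and C 3 and 11 were above. Among all genes 47.5% to 50.5% were above in these 8 libraries. Members thus shifted together in other libraries too, with medians closer to the group than in monoculture D. Results that rest on monoculture D are therefore also given without it, a setting in which the monoculture group holds 2 libraries.

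**Figure D1:**
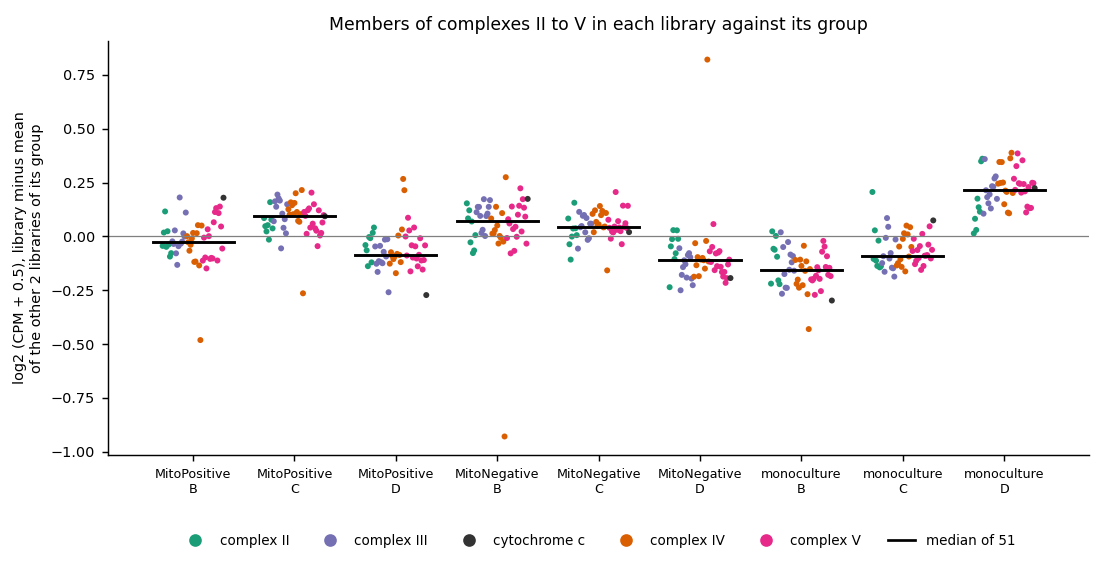
Each point is 1 of the 51 tested members in 1 library, plotted as log2 (CPM + 0.5) in that library minus the mean of the other 2 libraries of its group, coloured by complex, with the median as a black line. In monoculture D all 51 points lie above 0 (median 0.216), while the other medians lie between -0.158 and 0.095.

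In MitoPositive cells 8 of the 51 members were higher and 9 lower than in monoculture, 33.3% of the members together, and the median log2 fold change was -0.006. Among all 15711 genes 22.3% were called higher and 19.9% lower, with a median of 0.003. In MitoNegative cells 8 members were higher and 12 lower than in monoculture (39.2% of members, median -0.058), against 20.6% higher and 18.3% lower among all genes (median 0.009). Both comparisons use the same monoculture libraries. The 8 higher members were the same in both: the complex IV genes Cox6b2, Cox7a1, Cox7a2 and Cox7c, the electron carrier Cycs, and the complex II assembly factors Sdhaf1, Sdhaf3 and Sdhaf4. Lower in both were 9: Sdha of complex II, Uqcrc1 and the assembly factor Uqcc3 of complex III, Cox7a2l of complex IV, and Atp5a1, Atp5h, Atp5j, Atp5j2 and Atp5k of complex V. Cox5b, Sdhb and Uqcr11 were lower in MitoNegative cells and not called in MitoPositive cells, and in the direct comparison of the sorted cells none of the 3 was called. In the paired fit of the sorted groups alone Sdhb (adjusted p = 0.0373 by edgeR) and Cox5b (adjusted p = 0.00948) were called higher in MitoPositive cells and Uqcr11 was not. The remaining 31 members were called in neither, with log2 fold changes between -0.20 (Atp5g3) and 0.28 (Uqcc2) for MitoPositive and between -0.22 (Uqcr10) and 0.23 (Uqcc2) for MitoNegative cells. Of 41 structural subunits, counted over all complexes, 2 were higher and 8 lower in MitoPositive cells, and 2 were higher and 11 lower in MitoNegative cells.

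Without monoculture D the balance of these counts turned. In MitoPositive cells 19 members were then higher and 5 lower, where all genes gave 23% and 18.7%. In MitoNegative cells 18 were higher and 5 lower, where all genes gave 20.9% and 16.6%. All 8 higher calls were kept in both comparisons. Of the lower calls, Atp5a1, Atp5h and Uqcc3 were kept in both, Cox7a2l and Sdha in MitoPositive cells, and Atp5j and Atp5k in MitoNegative cells. Members newly called higher in both were Atp5c1, Atp5d, Atp5g2, Atp5mpl, Cox5a, Cox8a, Uqcc2, Uqcrc2 and Uqcrfs1. Other libraries also moved a count of calls. Without MitoPositive D 5 members were lower in MitoPositive cells. In MitoNegative cells 5 were higher without MitoNegative C or without monoculture B, and 7 were lower without MitoNegative B and 5 without MitoNegative D. With total counts as the scale 14 members were higher in MitoPositive cells.

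**Figure D2:**
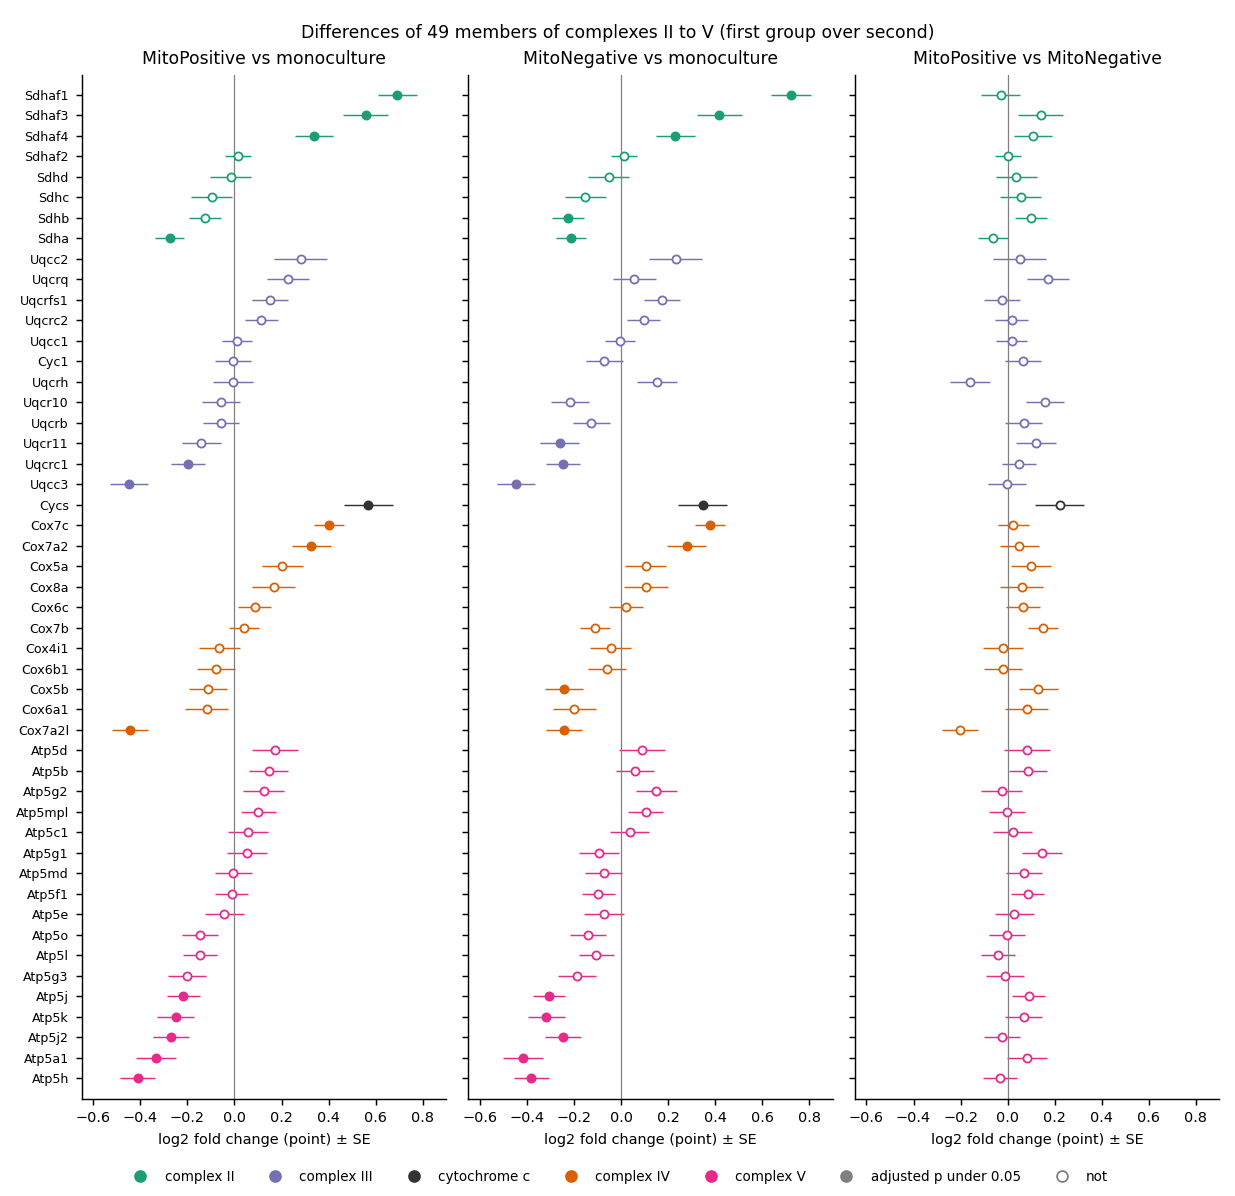
Log2 fold change ± SE (horizontal axis) of the tested members apart from Cox6b2 and Cox7a1, by complex and in the order of the MitoPositive against monoculture values, for MitoPositive over monoculture, MitoNegative over monoculture and MitoPositive over MitoNegative; filled points had an adjusted p under 0.05. Each complex holds points on both sides of 0 in the comparisons with monoculture, and no point is filled in the comparison of the sorted cells. All values are from the main fit, which had no replicate block.

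Complex IV held the member with the largest difference, Cox6b2, which encodes the form of subunit 6B known from testis. It lies on chromosome 7 (positions 4751792 to 4753094 in GRCm38, minus strand). Cox6b2 stood at 11.8, 16.5 and 16.9 CPM in MitoPositive B, C and D, at 4.77, 8.02 and 11.3 CPM in MitoNegative B, C and D, and at 0.410, 0.632 and 0.828 CPM in monoculture B, C and D. Every co-cultured library lay above every monoculture library, MitoPositive lay above MitoNegative in all 3 letters, and in each group replicate B was the lowest. The level was 24.1-fold higher in MitoPositive cells than in monoculture (log2 4.59 ± 0.381, adjusted p = 2.31e-05) and 12.9-fold higher in MitoNegative cells (log2 3.69 ± 0.376, adjusted p = 0.000103). By log2 fold change it ranked 141 of 15711 genes in MitoPositive and 205 of 15711 in MitoNegative cells. Both calls were kept in all 22 alternatives, with log2 fold changes of 4.36 to 4.86 and 3.36 to 3.97. MitoPositive D and MitoNegative D, which had the highest Cox6b2 level of their groups, had the lowest sums of the 7 stromal markers absent from monoculture, 4.06 and 3.85 CPM. Monoculture D, without reads of these 7 markers, also had the highest Cox6b2 level of its group. Any part of stromal RNA in the Cox6b2 level was not tested. No 50-base stretch of Cox6b2 transcripts occurred in another gene and none of its exon bases overlapped one. The nearest measured neighbour, Kmt5c, stood at 23.7 ± 2.48, 24.3 ± 2.6 and 25.5 ± 0.952 CPM in MitoPositive, MitoNegative and monoculture cells and was not called. Fam71e2, which ends 131 bases upstream on the same strand, had 0 counts. Within 50000 bases, Brsk1 stood at only 0.258, 0.264 and 0.0330 CPM in the same order. It was called higher in MitoPositive (log2 2.88 ± 0.595, adjusted p = 0.00217) and MitoNegative cells (log2 2.93 ± 0.591, adjusted p = 0.00224). Tmem238 was called lower in MitoNegative cells (log2 -0.518 ± 0.177, adjusted p = 0.0368). These neighbours were chosen after their values were seen.

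The common isoform of the same subunit, Cox6b1 (chromosome 7, positions 30616861 to 30626151), stood at 116, 122 and 111 CPM in MitoPositive, 125, 120.2 and 108 CPM in MitoNegative and 116, 114 and 137 CPM in monoculture cells, in the order B, C and D, and was not called. Per kilobase of exon, Cox6b2 made up 7.64% ± 1.39 of subunit 6B transcripts in MitoPositive, 4.25% ± 1.96 in MitoNegative and 0.32% ± 0.0841 in monoculture cells (SD, n = 3). Cox6b1 thus supplied 92.4%, 95.7% and 99.7% of subunit 6B transcripts in the same order. The promoter stretches of both genes that hold no annotated exon are shown to compare the isoforms, from RefSeq on GRCm38.p6, 5′ to 3′ on the minus strand, at chr7:4753095-4753225 and chr7:30626152-30626364. They end 1 and 38 bases before the RefSeq start.
Cox6b2: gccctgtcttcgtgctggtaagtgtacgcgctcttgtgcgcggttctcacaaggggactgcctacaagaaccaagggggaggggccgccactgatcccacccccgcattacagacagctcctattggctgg
Cox6b1: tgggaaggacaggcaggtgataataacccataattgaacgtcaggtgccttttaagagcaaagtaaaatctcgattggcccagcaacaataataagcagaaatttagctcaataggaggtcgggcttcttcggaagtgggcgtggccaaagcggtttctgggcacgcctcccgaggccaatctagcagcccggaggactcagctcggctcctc
Neither stretch held any of the 4 motifs searched below. The full promoter window of Cox6b1 held 1 ETS motif, 28 bases before the start and outside the stretch shown. That of Cox6b2 held none of the 4. GC content was 61.1% for Cox6b2 and 52.1% for Cox6b1.

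**Figure D3:**
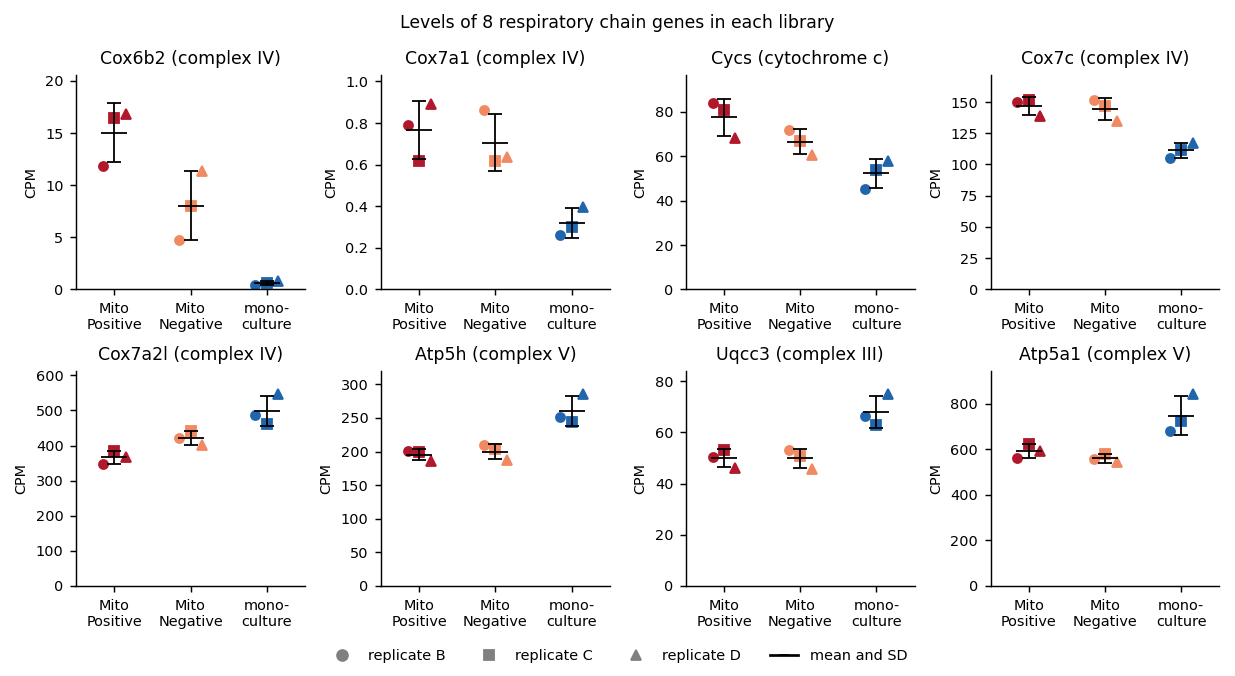
CPM of 8 members in each library (points, shaped by replicate letter) with the group mean and SD (black), linear axes from 0. Cox6b2, Cox7a1, Cycs and Cox7c are higher in all 6 co-cultured libraries than in the 3 monoculture libraries, while Cox7a2l, Atp5h, Uqcc3 and Atp5a1 are lower in all 6.

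Subunit 7A differed as well. Its heart and muscle isoform Cox7a1 stood at 0.791, 0.616 and 0.893 CPM in MitoPositive, 0.863, 0.616 and 0.637 CPM in MitoNegative and 0.262, 0.299 and 0.397 CPM in monoculture B, C and D, under 1 CPM throughout. It was 2.40-fold higher in MitoPositive (log2 1.26 ± 0.276, adjusted p = 0.00306) and 2.20-fold higher in MitoNegative cells (log2 1.14 ± 0.277, adjusted p = 0.00675). Its liver isoform Cox7a2, by far the more abundant, stood at 75.7, 87.8 and 77.0 CPM in MitoPositive, 76.2, 82.6 and 73.6 CPM in MitoNegative and 57.2, 64.0 and 70.2 CPM in monoculture cells. Cox7a2 was 1.25-fold higher in MitoPositive (log2 0.33 ± 0.0838, adjusted p = 0.00799) and 1.21-fold higher in MitoNegative cells (log2 0.28 ± 0.0838, adjusted p = 0.0205), and the co-cultured libraries did not overlap with monoculture. The MitoNegative call of Cox7a2 ended without MitoNegative C, monoculture B or monoculture C (adjusted p = 0.052 to 0.0827). The Cox7a1 share of 7A transcripts per kilobase was 1.68% ± 0.407 in MitoPositive, 1.59% ± 0.338 in MitoNegative and 0.869% ± 0.103 in monoculture cells (SD, n = 3).

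Cox7c, a small structural subunit, stood at 150.4, 152 and 139 CPM in MitoPositive, 152, 147 and 135 CPM in MitoNegative and 105, 112 and 117 CPM in monoculture B, C and D. It was 1.32-fold higher in MitoPositive (log2 0.40 ± 0.0654, adjusted p = 0.000453) and 1.30-fold higher in MitoNegative cells (log2 0.38 ± 0.0654, adjusted p = 0.000843), and both calls were kept in all 22 alternatives. Cox7a2l, which is related to subunit 7A and known for joining complexes III and IV into supercomplexes, went the other way, with 346, 385 and 366 CPM in MitoPositive, 421, 440.5 and 402 CPM in MitoNegative and 487, 461 and 547 CPM in monoculture cells. The 3 groups did not overlap for Cox7a2l, with MitoPositive lowest and monoculture highest. It was 1.36-fold lower in MitoPositive (log2 -0.45 ± 0.0763, adjusted p = 0.000645) and 1.18-fold lower in MitoNegative cells (log2 -0.24 ± 0.0762, adjusted p = 0.025), and the MitoNegative call ended without MitoNegative B, MitoNegative D or monoculture D (adjusted p = 0.0747 to 0.0865). Of the 50-base stretches in Cox7a2l transcripts 13.8% also occurred in another gene, and of those in Cox7c 22.1%, so reads there may have been lost or shared. Cox5b, a subunit on the matrix side, was 1.18-fold lower in MitoNegative cells than in monoculture (log2 -0.24 ± 0.0816, adjusted p = 0.0338), with 94.4, 105 and 93.3 CPM in MitoPositive, 89.5, 94.1 and 83.6 CPM in MitoNegative and 95.6, 103 and 118 CPM in monoculture cells. That call ended without MitoNegative B, MitoNegative D, monoculture C or monoculture D (adjusted p = 0.0536 to 0.134).

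The other core subunits of complex IV were not called. Cox4i1, the common form of subunit 4 and the complex IV gene with the most transcript per kilobase in each group, stood at 504, 534 and 475 CPM in MitoPositive, 530.2, 536 and 468 CPM in MitoNegative and 499.6, 494 and 589 CPM in monoculture B, C and D. Cox6a1, the liver form of subunit 6A, stood at 65.7, 71.5 and 63.7 CPM in MitoPositive, 64.1, 65.3 and 60.5 CPM in MitoNegative and 64.6, 68.7 and 84.7 CPM in monoculture cells. For both, monoculture D was the highest of the 9 libraries and the groups overlapped. Cox5a, the partner of Cox5b in the matrix arm, stood at 89.9, 95.4 and 88.0 CPM in MitoPositive, 85.5, 85.7 and 83.7 CPM in MitoNegative and 70.9, 74.1 and 92.2 CPM in monoculture cells. Cox8a, the common form of subunit 8, stood at 138, 154 and 149 CPM in MitoPositive, 139, 144 and 139.6 CPM in MitoNegative and 115, 124 and 154 CPM in monoculture cells. In these 2 genes monoculture B and C lay below every co-cultured library and monoculture D did not. Without monoculture D Cox5a was higher by a log2 fold change of 0.34 in MitoPositive (adjusted p = 0.000681) and 0.24 in MitoNegative cells (adjusted p = 0.00618), and Cox8a by 0.31 (adjusted p = 0.00273) and 0.25 (adjusted p = 0.0101), by edgeR. Cox6c and Cox7b made up the rest of the tested complex IV subunits and were not called against monoculture.

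Most tissue isoforms of complex IV were at or near 0. Cox7b2, Cox8b and Cox8c had 0 counts in all 9 libraries, which allows up to 0.0401 to 0.056 CPM per library (3 counts, counting error only). Cox4i2, the lung form of subunit 4, had 5, 2 and 1 counts in MitoPositive, 0, 1 and 0 counts in MitoNegative and 0, 3 and 1 counts in monoculture B, C and D. Cox6a2, the heart and muscle form of subunit 6A, had 6, 3 and 4 counts in MitoPositive, 7, 8 and 8 counts in MitoNegative and 7, 5 and 4 counts in monoculture cells. These are levels of a few reads in each library, and neither gene passed the filter. Cox6c2, which GENCODE lists as a processed pseudogene, had 2 to 5 counts per library and was not tested.

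Cycs, the soluble carrier between complexes III and IV that is also known for its release in apoptosis, stood at 84.0, 80.7 and 68.1 CPM in MitoPositive, 72.0, 67.0 and 60.7 CPM in MitoNegative and 45.3, 53.9 and 57.8 CPM in monoculture B, C and D. All 6 co-cultured libraries lay above the 3 monoculture libraries, and in each letter the MitoPositive library lay above the MitoNegative one. Cycs was 1.48-fold higher in MitoPositive (log2 0.57 ± 0.104, adjusted p = 0.00116) and 1.27-fold higher in MitoNegative cells (log2 0.35 ± 0.104, adjusted p = 0.0209) than in monoculture. The MitoNegative call ended without MitoNegative B, MitoNegative C or monoculture B (adjusted p = 0.0526 to 0.073), while the MitoPositive call was kept in all 22 alternatives. Of the 50-base stretches in Cycs transcripts 26.1% occurred in other genes, 76 of them, so its level is uncertain. The exon-free part of its promoter is shown because it holds a full NRF1 motif, in capitals (RefSeq, GRCm38.p6, chr6:50566570-50566642, minus strand, ending 1 base before the start).
Cycs: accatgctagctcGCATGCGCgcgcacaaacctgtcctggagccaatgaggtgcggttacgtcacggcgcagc

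In complex II the enzyme subunits and their assembly factors moved in opposite directions where they were called. Sdha, the flavoprotein that oxidises succinate, stood at 326, 319.8 and 321 CPM in MitoPositive, 347, 342 and 320 CPM in MitoNegative and 389.8, 366 and 415 CPM in monoculture B, C and D. All co-cultured libraries lay below all monoculture libraries. It was 1.21-fold lower in MitoPositive (log2 -0.28 ± 0.0635, adjusted p = 0.00429), kept in all 22 alternatives, and 1.16-fold lower in MitoNegative cells (log2 -0.21 ± 0.0635, adjusted p = 0.0191), a call that ended without MitoNegative C, MitoNegative D or monoculture D (adjusted p = 0.0545 to 0.0745). Sdhb, the iron-sulphur subunit, stood at 79.9, 87.6 and 76.9 CPM in MitoPositive, 73.2, 81.7 and 73.2 CPM in MitoNegative and 85.0, 88.0 and 93.6 CPM in monoculture cells. It was 1.17-fold lower in MitoNegative cells (log2 -0.23 ± 0.0686, adjusted p = 0.0218), and this ended without MitoNegative B, MitoNegative D or monoculture D (adjusted p = 0.0725 to 0.0956). In MitoPositive cells Sdhb overlapped with monoculture and was not called. The membrane anchors Sdhc and Sdhd were not called. Sdhc stood at 78.1, 84.6 and 82.2 CPM in MitoPositive, 76.2, 79.9 and 79.5 CPM in MitoNegative and 78.8, 81.0 and 102 CPM in monoculture cells, and Sdhd at 99.7, 105 and 105 CPM in MitoPositive, 101, 101 and 100.4 CPM in MitoNegative and 93.7, 97.4 and 123 CPM in monoculture cells. Monoculture D was the highest library for each of the 4 subunits.

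Of the 4 assembly factors of complex II 3 were higher in both co-cultured groups. Sdhaf3, which helps to mature Sdhb, stood at 10.1, 9.65 and 8.93 CPM in MitoPositive, 9.19, 8.22 and 8.61 CPM in MitoNegative and 6.31, 6.58 and 6.59 CPM in monoculture B, C and D, 1.47-fold higher (log2 0.56 ± 0.0956, adjusted p = 0.000643) and 1.34-fold higher (log2 0.42 ± 0.0956, adjusted p = 0.00476). Sdhaf4, which binds Sdha during assembly, stood at 13.1, 13.8 and 13.4 CPM in MitoPositive, 12.3, 12.5 and 12.6 CPM in MitoNegative and 10.3, 10.0 and 11.5 CPM in monoculture cells. Sdhaf4 was 1.26-fold higher in MitoPositive (log2 0.34 ± 0.0821, adjusted p = 0.00581) and 1.17-fold higher in MitoNegative cells (log2 0.23 ± 0.0821, adjusted p = 0.0431). The MitoNegative call ended on leaving out any single library other than monoculture D (adjusted p = 0.0595 to 0.13). Sdhaf1, which serves the iron-sulphur clusters of Sdhb, had 44.2, 46.9 and 44.3 CPM in MitoPositive, 49.3, 47.7 and 41.1 CPM in MitoNegative and 25.1, 30.6 and 28.0 CPM in monoculture cells, 1.62-fold higher (log2 0.69 ± 0.0845, adjusted p = 5.73e-05) and 1.65-fold higher (log2 0.72 ± 0.0845, adjusted p = 5.78e-05). Its value is uncertain, because 69.6% of its exon bases overlap E130208F15Rik on the opposite strand and the strand setting of the counting was not given in the sources used here. Sdhaf2, the factor for the flavin of Sdha, was not called.

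Complex III showed few calls. Uqcc3, an assembly factor, stood at 50.4, 53.1 and 46.1 CPM in MitoPositive, 53.1, 50.8 and 45.8 CPM in MitoNegative and 66.3, 62.8 and 74.9 CPM in monoculture B, C and D. It was 1.36-fold lower in MitoPositive (log2 -0.45 ± 0.0813, adjusted p = 0.000946) and in MitoNegative cells (log2 -0.45 ± 0.0813, adjusted p = 0.00117), with no overlap between co-culture and monoculture, and both calls were kept in all 22 alternatives. Uqcrc1, a core protein of the complex, stood at 137, 146 and 134 CPM in MitoPositive, 134, 139.6 and 129 CPM in MitoNegative and 148, 153 and 177 CPM in monoculture cells. It was 1.15-fold lower in MitoPositive (log2 -0.20 ± 0.0721, adjusted p = 0.0449), a call that ended without any MitoPositive library, without MitoNegative B or C, or without monoculture D (adjusted p = 0.0512 to 0.178). It was kept in 8 of 22 alternatives, with adjusted p up to 0.292, and was also lost without the filter on low counts, with a minimum mean log2 CPM of 1, in both fits of MitoPositive and monoculture libraries alone and without mitochondrially encoded genes. In MitoNegative cells it was 1.19-fold lower (log2 -0.25 ± 0.0721, adjusted p = 0.0182), which ended without MitoNegative B, MitoNegative D or monoculture D (adjusted p = 0.0559 to 0.0635). The small subunit Uqcr11 was lower in MitoNegative cells, with 27.7, 30.6 and 26.8 CPM in MitoPositive, 26.4, 27.3 and 24.5 CPM in MitoNegative and 27.9, 31.8 and 34.2 CPM in monoculture cells (log2 -0.26 ± 0.0841, adjusted p = 0.0279). This call ended without MitoNegative B, MitoNegative D, monoculture C or monoculture D (adjusted p = 0.0678 to 0.108).

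The other catalytic and core genes of complex III were not called. Uqcrfs1, the Rieske iron-sulphur protein, stood at 109, 113 and 104 CPM in MitoPositive, 116, 109.9 and 106 CPM in MitoNegative and 92.2, 91.0 and 110.5 CPM in monoculture B, C and D. Uqcrc2, the other core protein, stood at 236, 243 and 237 CPM in MitoPositive, 246, 234 and 228 CPM in MitoNegative and 212, 206 and 245 CPM in monoculture cells. For both, monoculture B and C lay below all co-cultured libraries and monoculture D did not. Without monoculture D Uqcrfs1 was higher by 0.26 in MitoPositive (adjusted p = 0.00586) and 0.28 in MitoNegative cells (adjusted p = 0.00435), and Uqcrc2 by 0.21 (adjusted p = 0.0119) and 0.19 (adjusted p = 0.0209), on the log2 scale by edgeR. Cyc1, cytochrome c1, stood at 59.5, 67.6 and 58.5 CPM in MitoPositive, 61.7, 60.3 and 55.2 CPM in MitoNegative and 57.1, 61.7 and 67.4 CPM in monoculture cells, with overlapping groups. The remaining members Uqcrb, Uqcrq, Uqcrh, Uqcr10, Uqcc1 and Uqcc2 were not called against monoculture with all libraries. Without monoculture D Uqcrq was higher in MitoPositive (log2 0.30, adjusted p = 0.0306 by edgeR) and Uqcrh in MitoNegative cells (log2 0.26, adjusted p = 0.0128). In that setting Uqcc2 was higher in both (log2 0.43, adjusted p = 0.00574 and 0.37, adjusted p = 0.0126). For Uqcrb 25.5% of 50-base stretches occurred in other genes. The exon-free promoter of Uqcc3, the lower member kept in every alternative of both comparisons for this complex, is shown with its ERR motif in capitals (RefSeq, GRCm38.p6, chr19:8880934-8881183, minus strand).
Uqcc3: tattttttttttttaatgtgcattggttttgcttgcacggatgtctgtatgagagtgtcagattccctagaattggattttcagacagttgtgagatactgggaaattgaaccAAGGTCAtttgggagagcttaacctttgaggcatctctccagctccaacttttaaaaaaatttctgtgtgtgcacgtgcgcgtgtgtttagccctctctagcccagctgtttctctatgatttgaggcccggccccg

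In complex V 5 of 17 tested genes were lower in both co-cultured groups and none was higher, where 19.9% of all genes were lower in MitoPositive and 18.3% in MitoNegative cells. Without monoculture D this turned: in MitoPositive cells 2 genes stayed lower (Atp5a1 and Atp5h) and 5 were higher (Atp5b, Atp5c1, Atp5d, Atp5g2 and Atp5mpl), and in MitoNegative cells 4 stayed lower (Atp5a1, Atp5h, Atp5j and Atp5k) and 4 were higher (Atp5c1, Atp5d, Atp5g2 and Atp5mpl). Atp5a1, the alpha subunit of the catalytic head, stood at 562, 624 and 592 CPM in MitoPositive, 558, 580.1 and 542 CPM in MitoNegative and 679, 722 and 843 CPM in monoculture B, C and D. It was 1.26-fold lower in MitoPositive (log2 -0.33 ± 0.0843, adjusted p = 0.00727) and 1.34-fold lower in MitoNegative cells (log2 -0.42 ± 0.0843, adjusted p = 0.00226). Atp5h, subunit d of the peripheral stalk that holds the head still, stood at 202, 199 and 186 CPM in MitoPositive, 209, 204 and 187 CPM in MitoNegative and 251, 244 and 286 CPM in monoculture cells. It was 1.33-fold lower in MitoPositive (log2 -0.41 ± 0.0729, adjusted p = 0.000791) and 1.30-fold lower in MitoNegative cells (log2 -0.38 ± 0.0728, adjusted p = 0.0016). For both genes co-culture and monoculture did not overlap and the calls were kept in all 22 alternatives. Of the 50-base stretches in Atp5h transcripts 19.9% occurred in other genes.

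The other 3 lower genes of complex V were small subunits. Atp5j, coupling factor 6 of the peripheral stalk, stood at 114, 109.6 and 102 CPM in MitoPositive, 109, 103 and 94.2 CPM in MitoNegative and 125, 121 and 133 CPM in monoculture B, C and D (log2 -0.22 ± 0.069, adjusted p = 0.0244 in MitoPositive and -0.31 ± 0.0691, adjusted p = 0.00437 in MitoNegative cells). Atp5j2, subunit f of the membrane part, stood at 123, 114 and 112 CPM in MitoPositive, 130.5, 116 and 108 CPM in MitoNegative and 137, 134 and 149 CPM in monoculture cells (log2 -0.27 ± 0.0765, adjusted p = 0.0137 and -0.25 ± 0.0764, adjusted p = 0.0233). Atp5k, subunit e, stood at 34.2, 38.2 and 35.9 CPM in MitoPositive, 34.8, 36.8 and 31.8 CPM in MitoNegative and 40.1, 41.1 and 47.7 CPM in monoculture cells (log2 -0.25 ± 0.0796, adjusted p = 0.0245 and -0.32 ± 0.0797, adjusted p = 0.00793). In MitoPositive cells these 3 calls rested on single libraries. Atp5j was lost without MitoPositive C, MitoPositive D, MitoNegative C or monoculture D (adjusted p = 0.0508 to 0.0969), Atp5j2 without MitoPositive C, MitoPositive D or monoculture D (0.0506 to 0.0511), and Atp5k without MitoPositive B, MitoPositive D or monoculture D (0.0603 to 0.101). In MitoNegative cells Atp5j2 was lost without MitoNegative C, MitoNegative D or monoculture D (0.0823 to 0.0904), and no single library ended the calls of Atp5j and Atp5k.

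Atp5b, the beta subunit that carries the catalytic sites, did not follow Atp5a1. It stood at 847, 887 and 815 CPM in MitoPositive, 829.8, 815 and 757 CPM in MitoNegative and 697, 762 and 846 CPM in monoculture B, C and D and was not called. Without monoculture D it was higher by 0.23 on the log2 scale in MitoPositive cells (adjusted p = 0.021 by edgeR). Atp5c1, the gamma subunit of the rotating stalk, stood at 170.3, 179 and 186 CPM in MitoPositive, 181, 175 and 172 CPM in MitoNegative and 156, 161 and 198 CPM in monoculture cells and was not called. Without monoculture D it was higher by 0.19 in MitoPositive (adjusted p = 0.0213) and 0.16 in MitoNegative cells (adjusted p = 0.0396). The remaining tested members Atp5d, Atp5e, Atp5f1, Atp5l, Atp5md, Atp5mpl and Atp5o were not called in either comparison. The second Atp5o identifier (ENSMUSG00000116933.1) had 0 counts in all libraries, and 41.6% of the 50-base stretches of the tested Atp5o occurred in other genes.

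Subunit c of the rotor ring is encoded by 3 genes that differ in the targeting peptide and yield the same mature protein. Atp5g1 stood at 38.5, 44.5 and 38.6 CPM in MitoPositive, 35.4, 40.2 and 34.2 CPM in MitoNegative and 36.2, 38.2 and 42.9 CPM in monoculture B, C and D. Atp5g2 stood at 112, 121 and 119.9 CPM in MitoPositive, 122, 122 and 116 CPM in MitoNegative and 97.9, 99.8 and 126 CPM in monoculture cells. Atp5g3 stood at 155, 174 and 159 CPM in MitoPositive, 164, 169.7 and 159 CPM in MitoNegative and 166, 187 and 208 CPM in monoculture cells. None of the 3 was called by its level with all libraries. Without monoculture D Atp5g2 was higher in MitoPositive (log2 0.26, adjusted p = 0.00348 by edgeR) and MitoNegative cells (log2 0.29, adjusted p = 0.00249), and with the replicate block Atp5g3 was lower in MitoPositive cells (adjusted p = 0.0429). Per kilobase of exon, Atp5g2 supplied 45.9% ± 1.08 of subunit c transcripts in MitoPositive, 46.4% ± 0.601 in MitoNegative and 40.7% ± 1.61 in monoculture cells, and Atp5g3 supplied 48.7% ± 0.85, 48.8% ± 0.359 and 54.3% ± 1.55 (SD, n = 3). The 6 co-cultured libraries had 44.8% to 47.0% Atp5g2 and the 3 monoculture libraries 38.9% to 42.0%, without overlap. Atp5g1 supplied 5.38% ± 0.23, 4.83% ± 0.294 and 5.04% ± 0.175. The exon length used was 4912 bases for Atp5g1, 1675 for Atp5g2 and 2181 for Atp5g3. Each share thus also depends on the annotated exons, whether or not the transcripts present hold them all. Of the 50-base stretches of Atp5g2 38.3% occurred in other genes, so these shares depend on how shared reads were counted.

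**Figure D4:**
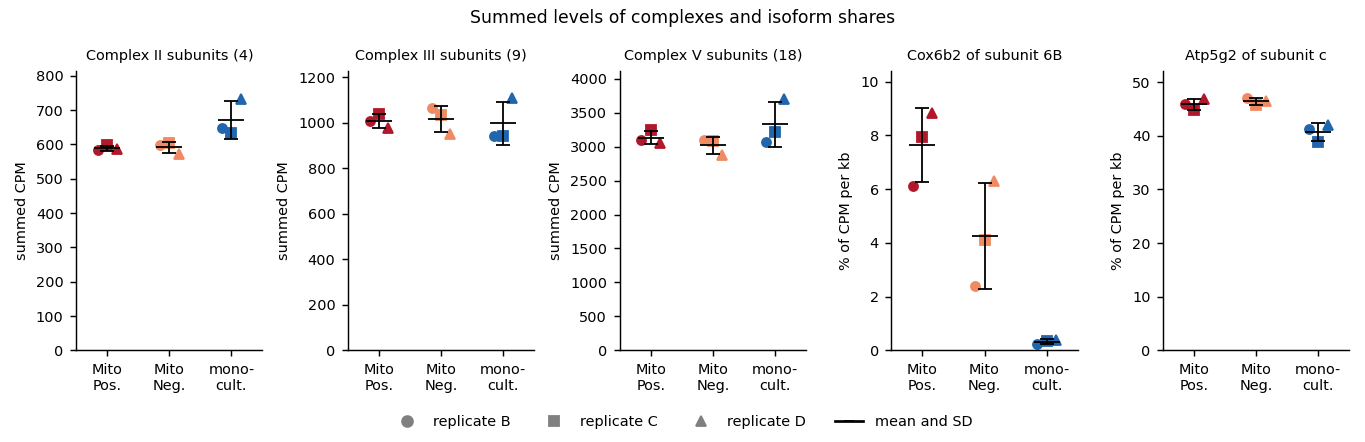
Summed CPM of the subunits of complexes II, III and V, and the share of Cox6b2 in subunit 6B and of Atp5g2 in subunit c transcripts (percent of CPM per kilobase), in each library (points) with group mean and SD (black), axes from 0. The sums of complexes III and V overlap between the groups, with monoculture D the highest library of all for complexes II, III and V, while both isoform shares are higher in all 6 co-cultured libraries.

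Of the summed levels of complexes II to V, that of complex II alone did not overlap between co-culture and monoculture. The 4 subunits of complex II summed to 583.4, 597.1 and 585.4 CPM in MitoPositive, 597.4, 604.4 and 573.2 CPM in MitoNegative and 647.3, 631.9 and 732.9 CPM in monoculture B, C and D, and every monoculture library lay above every co-cultured one. Sdha made up 53.5% to 60.2% of that sum. Without Sdha the other 3 subunits summed to 257.7, 277.4 and 264.6 CPM in MitoPositive, 250.6, 262.7 and 253.2 CPM in MitoNegative and 257.5, 266.4 and 318.3 CPM in monoculture cells, and the groups overlapped. Complex III subunits summed to 1009 ± 30.6 CPM in MitoPositive, 1017 ± 57.4 CPM in MitoNegative and 997.8 ± 95.4 CPM in monoculture cells (SD, n = 3). Complex IV genes, tissue isoforms included, summed to 1838 ± 90.1, 1851 ± 91.8 and 1908 ± 181 CPM, and complex V to 3133 ± 102, 3023 ± 124 and 3329 ± 333 CPM, in the same order. The groups overlapped for complexes III, IV and V. Per kilobase of exon the subunits of 1 complex were not equal: in MitoPositive cells complex II ran from 25.1 (Sdhc) to 84.1 (Sdhd), complex III from 28.7 (Cyc1) to 224.4 (Uqcrh), complex IV from 36.0 (Cox6c) to 325.3 (Cox4i1) and complex V from 8.26 (Atp5g1) to 200.6 (Atp5b) CPM per kilobase. Assembly factors and tissue isoforms were left out of these ranges, among them Cox6b2 at 13.6 and Cox7a1 at 1.43 CPM per kilobase in MitoPositive cells. These levels also depend on the annotated exon length. Among the subunits ranked, the lowest gene of each complex was the same in all 3 groups. The highest was Sdha in monoculture where it was Sdhd in both co-cultured groups, and Atp5a1 in monoculture where it was Atp5b in both co-cultured groups.

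The direct comparison of MitoPositive with MitoNegative cells asked whether T cells that carried the stromal label differed in these genes from co-cultured T cells without it. The main fit left out the pairing by letter, and in it none of the 51 members was called by edgeR, where 0.165% of all genes were. DESeq2 and limma voom, also without the pairing, called 0 as well. Fits with the pairing did call members and are given below. An unadjusted p under 0.05 was reached by 3 members, all of complex IV: Cox6b2, Cox7a2l and Cox7b. Cox6b2 had a log2 fold change of 0.90 ± 0.305, adjusted p = 0.321, Cox7a2l -0.20 ± 0.0762, adjusted p = 0.36, Cox7b 0.15 ± 0.0642, adjusted p = 0.436 and Cycs, next by p, 0.22 ± 0.103, adjusted p = 0.494. Cox7b, a small subunit, stood at 77.8, 79.9 and 74.2 CPM in MitoPositive and 69.3, 73.5 and 66.0 CPM in MitoNegative B, C and D, without overlap, and at 69.6, 76.8 and 79.0 CPM in monoculture cells. MitoPositive values lay above MitoNegative ones for 36 of 51 members, with a median log2 fold change of 0.056, against -0.000378 over all genes.

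Because the letters pair these libraries, the replicate block was also fitted. With the replicate block over all 9 libraries 1 member was called, Cox6b2 (log2 0.96 ± 0.124, adjusted p = 0.00712 by edgeR), where 2.34% of all genes were called. A paired fit of the sorted groups alone called 10 members higher (Atp5g1, Atp5j, Cox5a, Cox5b, Cox6b2, Cox7b, Cycs, Sdhb, Uqcr10 and Uqcrq) and 2 lower (Cox7a2l and Uqcrh), where 18.2% of all genes were called. In that fit the largest changes after Cox6b2 (log2 0.95) were Cycs at 0.22 and Cox7a2l at -0.20. Taken letter by letter with no test, 23 members (45.1%) were higher in MitoPositive in all 3 letters and 3 (5.88%) lower, namely Atp5h, Cox7a2l and Uqcrh, while 25.2% of all genes were higher in all 3 and 24.7% lower. By complex the members higher in all 3 letters were 4 of 8 in complex II, 5 of 12 in complex III, 6 of 13 in complex IV and 7 of 17 in complex V, besides Cycs. Members share libraries and are not replicates, so these shares describe the libraries.

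Promoter windows of RefSeq on GRCm38.p6, from 250 bases before to 50 after the start, were used for 44 members. They were searched on both strands for the core motifs of 4 factors known to act on respiratory genes: NRF1 (GCATGCGC), the ETS factor GABP (CCGGAAG), YY1 (AAGATGGC) and the estrogen-related receptors (AAGGTCA). NRF1's motif was in 8 members (18.2%), against 3.05% of 27025 genes with a window. That background kept windows on chromosome 18, which were left out for members, so Atp5a1 was not searched. The ETS motif was in 16 members (36.4%, against 9.93%), YY1's in 4 (9.09%, against 3.19%) and that of the estrogen-related receptors in 6 (13.6%, against 5.38%). The NRF1 windows were those of Atp5g2, Atp5k, Atp5l, Cox6a1, Cycs, Sdhb, Uqcr11 and Uqcrc1, which include members called higher (Cycs), lower (Atp5k and Uqcrc1) and in neither comparison (Atp5g2, Atp5l and Cox6a1). A motif match describes the sequence and is not evidence of binding. GCATGCGC can overlap itself on the other strand, as it does in Cox6a1.

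Genes that work beside the members were counted by lists chosen with earlier results known. Of 37 tested assembly factors and accessory proteins of complexes II to V, 6 were higher and 5 lower in MitoPositive cells than in monoculture, and 7 were higher and 8 lower in MitoNegative cells. Over all genes 22.3% were higher and 19.9% lower in MitoPositive cells, and 20.6% were higher and 18.3% lower in MitoNegative cells, which holds as the background for each list here. In MitoNegative cells 4 of these factors were higher without MitoNegative B or monoculture B, and 5, 5 and 4 were lower without MitoNegative B, C and D. The largest changes were those of Ndufa4, now counted among the complex IV proteins, at 35.0 ± 3 CPM in MitoPositive, 33.4 ± 0.516 CPM in MitoNegative and 62.5 ± 5.2 CPM in monoculture cells (log2 -0.84 ± 0.0755, adjusted p = 6.12e-06 and -0.90 ± 0.0755, adjusted p = 5.46e-06), and of the copper chaperone Sco1 at 21.4 ± 3.22, 22.3 ± 2.93 and 13.7 ± 1.19 CPM (log2 0.64 ± 0.122, adjusted p = 0.00133 and 0.70 ± 0.122, adjusted p = 0.00089). Enzymes of coenzyme Q synthesis had 6 of 13 higher in MitoPositive, 5 of 13 in MitoNegative cells (3 without MitoNegative C) and none lower, where the background is 22.3% and 20.6% higher, led by the methyltransferase Coq3 (log2 0.56 ± 0.0881, adjusted p = 0.000335 and 0.35 ± 0.0882, adjusted p = 0.00771) and by Coq4 (log2 0.51 ± 0.119, adjusted p = 0.00448 and 0.53 ± 0.119, adjusted p = 0.00414). Both Coq4 calls ended without letter C (adjusted p = 0.0879 in MitoPositive and 0.0709 in MitoNegative cells). The MitoNegative call of Coq3 ended without letter B (adjusted p = 0.0715) or letter C (0.0706). Of 7 other enzymes that feed coenzyme Q, 3 were higher in each group and none lower. Gpd2, the mitochondrial glycerol-3-phosphate dehydrogenase, stood at 33.5 ± 5.12, 28.0 ± 2.06 and 16.8 ± 2.34 CPM in MitoPositive, MitoNegative and monoculture cells (log2 0.99 ± 0.122, adjusted p = 7.83e-05 and 0.73 ± 0.122, adjusted p = 0.000756). The electron transfer flavoprotein Etfa and its dehydrogenase Etfdh were the others. In MitoPositive against MitoNegative cells 0 members of each of these lists were called by edgeR. In the paired fit of the sorted groups alone 3 assembly factors, 2 enzymes of coenzyme Q synthesis and 1 other enzyme that feeds coenzyme Q were higher, and 1 assembly factor was lower.

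Of 12 regulators of respiratory genes 3 were higher and 6 lower in MitoPositive cells than in monoculture, and 3 were higher and 4 lower in MitoNegative cells (2 lower without MitoNegative B). Myc stood at 176 ± 13.3 CPM in MitoPositive, 144 ± 9.68 CPM in MitoNegative and 108 ± 7.42 CPM in monoculture cells (log2 0.70 ± 0.0762, adjusted p = 2.42e-05 and 0.42 ± 0.0761, adjusted p = 0.0012). Gabpb2, a subunit of GABP, was lower (log2 -0.53 ± 0.0583, adjusted p = 2.77e-05 and -0.45 ± 0.0582, adjusted p = 0.000124). Its relative Gabpb1 was higher (43.3 ± 1.48, 46.2 ± 3.63 and 35.0 ± 1.51 CPM, adjusted p = 0.003 and 0.000652). Gabpa was lower (101 ± 1.58, 105 ± 3.5 and 118 ± 4.29 CPM, adjusted p = 0.00503 and 0.0231), as was Nrf1 (adjusted p = 0.000511 and 0.0055). The coactivator gene Ppargc1b was lower in MitoPositive cells (log2 -0.53 ± 0.134, adjusted p = 0.00751). That call ended without letter B (adjusted p = 0.0503) or letter C (0.173). Of 6 mitochondrially encoded subunits of complexes III to V, mt-Co1 was higher at 12350 ± 1360 CPM in MitoPositive and 14410 ± 684 CPM in MitoNegative cells, against 9233 ± 530 CPM in monoculture (log2 0.42 ± 0.11, adjusted p = 0.00897 and 0.64 ± 0.11, adjusted p = 0.000784). The cytochrome b gene mt-Cytb was lower at 1647 ± 170 and 1746 ± 191 CPM, against 2336 ± 107 CPM (log2 -0.50 ± 0.102, adjusted p = 0.00192 and -0.42 ± 0.102, adjusted p = 0.00665). The MitoPositive call of mt-Co1 ended without MitoPositive D (adjusted p = 0.0514) or letter C (0.0747). The MitoNegative call of mt-Cytb ended without letter B (adjusted p = 0.101). The other genes of this list were not called, and their levels were far lower. In MitoPositive, MitoNegative and monoculture cells mt-Co2 stood at 10.0, 10.6 and 10.4 CPM and mt-Atp6 at 11.5, 11.9 and 13.2 CPM. In the same order mt-Co3 stood at 8.48, 8.97 and 9.60 CPM and mt-Atp8 at 1.45, 1.46 and 1.71 CPM. Why these levels were so low was not tested. Reads shared with nuclear copies of mitochondrial DNA were not resolved, so the levels of all 6 genes are uncertain. Of 36 complex I subunits 1 was higher and 5 lower in MitoPositive cells, and 2 were higher and 10 lower in MitoNegative cells, against 22.3% higher and 19.9% lower, and 20.6% higher and 18.3% lower, among all genes. Without monoculture D 5 were higher and 5 lower in MitoPositive cells, and 4 were higher and 6 lower in MitoNegative cells. In MitoPositive cells 2 were higher without MitoNegative B or D. In MitoNegative cells 1 was higher without MitoNegative B or monoculture C and 0 without MitoNegative C or monoculture B, and 6 were lower without MitoNegative C. Ndufa3 had the largest change of that complex (log2 -0.46 ± 0.0734, adjusted p = 0.00041 and -0.41 ± 0.0733, adjusted p = 0.000977). Between the sorted groups the main fit called none of the regulators, mitochondrially encoded subunits or complex I subunits. Myc was at log2 0.29 ± 0.0758 (adjusted p = 0.154 by edgeR). In some alternatives, the replicate block among them, up to 2 regulators were called higher. The paired fit of these groups alone called 4 regulators and 1 mitochondrially encoded subunit lower. It called 6 complex I subunits higher and 1 lower, where 18.2% of all genes were called.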

How the data were processed

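Per the labels' protocols, total RNA of CD8+ T cells was depleted of ribosomal RNA and made into libraries with a KAPA HyperPrep kit. The authors deposited raw counts per gene; the GRCm38 build and, as tools, STAR 2.7, cutadapt, featureCounts, bcl2fastq and DESeq2 stand in the submitters' processing notes, which give no role or order. Strand setting and annotation release: not given in the sources used here. The deposited annotation table gives each gene's position and exon length, and levels per kilobase use that length.

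Counts of 55421 genes (99 spike-in entries left out, at least 99.96% of counts kept) in 9 libraries were filtered with edgeR's filterByExpr (minimum count 10, minimum total 15), scaled by the trimmed mean of M-values and tested with the robust quasi-likelihood test (edgeR 4.0.16, R 4.3.3, 6 residual degrees of freedom) by group over all 15711 genes passing, with Benjamini-Hochberg adjustment at 0.05. DESeq2 1.42.0 and limma 3.58.1 served as alternatives. The test was checked on simulated data with known changes. The simulated libraries held no letter effect and no shift like that of monoculture D, so the check cannot speak to these. Its recovery of small changes is not given here. Replicates of a group differed by more than sampling noise (chi-square per degree of freedom 18.18 to 63.9). The members and gene lists were chosen with earlier results of these data known. Values in every library are given for up to 6 called members per direction with the largest change, the core subunits, the tissue isoforms and the 4 members of lowest p between the sorted groups. Sdhaf4 was added because it was called, and up to 3 called genes of largest change are named per list. Gabpb1, Gabpa and Nrf1 were added after their values were seen, because GABP and NRF1 motifs were searched.

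The shared letters were checked for pairing by correlating deviations from the group means (threshold 0.1). MitoPositive and MitoNegative libraries of 1 letter gave r = 0.402, 0.339 and 0.459, above the threshold. The main test held no replicate block, and fits with the block are given as alternatives. MitoNegative and monoculture gave 0.213, 0.153 and 0.111, and MitoPositive and monoculture gave 0.248, 0.0521 and 0.163, where the letter C pair missed the threshold. Promoter sequences came from RefSeq on GRCm38.p6, and only bases outside annotated exons are printed.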

Additional observations from a re-analysis of the deposited data

How the results depend on the processing

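Counts of calls and the log2 fold changes of called members, of the 4 members named between the sorted groups and of the list genes given with a log2 value were recomputed under 22 alternatives, fewer where a gene could not be tested. Summed levels were recomputed under other scalings and without each replicate, and isoform shares without each replicate. The paired fit of 2 groups alone and the fit without mitochondrially encoded genes were chosen after seeing the data. None of these log2 fold changes turned its direction: 1240 stayed on their side of the threshold, 113 no longer passed it and 5 newly passed it. The 75 summed levels and 63 isoform shares moved by less than 1 SD. Leaving out 1 of 3 replicates cannot move a group mean by 1 SD, whatever the data. That outcome was therefore fixed for all isoform shares and for the sums without a replicate, and does not speak to their stability. Of the counts of members called 111 stayed within 1.5 times and 21 did not, and of the counts of list genes called 722 did and 64 did not. Between MitoPositive and MitoNegative cells 1 member was higher with the replicate block, and 10 were higher and 2 lower in the paired fit of the sorted groups alone; leaving out libraries or letters gave 0 in each direction. For MitoPositive against monoculture, members called higher numbered 14 with total counts as the scale and 19 without monoculture D or without letter D; members called lower numbered 5 without MitoPositive D, monoculture D, letter C or letter D. Leaving out libraries or letters gave 6 to 19 higher and 5 to 10 lower. For MitoNegative against monoculture, 5 were higher without monoculture B or MitoNegative C, 18 without monoculture D, and 3, 4 and 19 without letters B, C and D. Members lower there numbered 7 without MitoNegative B or letter C, 5 without MitoNegative D or monoculture D, and 4 without letter D. Leaving out libraries or letters gave 3 to 19 higher and 4 to 15 lower. The causes were not tested. With the replicate block Atp5g3 was also lower in MitoPositive cells (adjusted p = 0.0429 by edgeR) and Uqcr10 in MitoNegative cells (adjusted p = 0.0271), and no other member's call against monoculture changed in that fit over all 9 libraries. In the paired fit of 2 groups alone the MitoNegative calls of Sdha (adjusted p = 0.097), Cox7a2l (0.0893), Sdhaf4 (0.0838) and Cox5b (0.06) and the MitoPositive call of Uqcrc1 (0.0784) were lost, and Uqcc2 (0.0332) and Uqcrq (0.0493) were called higher in MitoPositive cells. Depth limits the members at or under the floor of 3 counts, 0.0401 to 0.056 CPM.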
